A study of Drosophila melanogaster with 2 samples.

Results

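Deep intronic binding of hng2 in Drosophila melanogaster embryos was described from 773 peaks, 24.4% of the 3170 peaks of the study's optimal list. A peak was taken as deep intronic when its summit, the base of highest enrichment, lay inside an annotated gene, in no annotated exon and more than 2000 bp from the transcription start site (TSS) of any gene, with transposable elements left out of the annotation. The rule used position alone and no measured signal. The peaks come from chromatin immunoprecipitation followed by sequencing (ChIP-seq) on whole embryos of both sexes, 0 to 14 h old. The embryos were from a transgenic line that stably carries CG8359, the gene now called hng2, fused at its C-terminus to GFP. Biological replicates 2 and 3, the 2 samples of the study, were treated alike, so no condition was compared. The labels differ on the antibody, since its entry reads CG8359 and the sample description reads anti-GFP. All cell types of the embryo were mixed, so a peak cannot be assigned to a tissue, and binding in few cells cannot be told apart from weaker binding in many. Control libraries were not analysed here.

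hng2 belongs to the MADF-BESS family, fly proteins with an N-terminal MADF domain that contacts DNA and a C-terminal BESS motif that mediates contacts between proteins. Several members of the family act in development of the wing hinge, which gives the hinge genes their name. Introns of fly developmental genes, the first intron above all, often hold enhancers and alternative promoters, and a protein bound there may act on its host gene or on a neighbour. The optimal list holds the peaks that the authors kept after comparing replicates by the irreproducible discovery rate (IDR). Its signal is the authors' enrichment value per peak and was used here only to rank and describe peaks within 1 list.

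The sequences under the strongest deep intronic summits are shown because the word AAACGC recurs in them. Each is the 200 bp window centred on the summit, from the RefSeq Release 6 genome (build dm6), 5' to 3', and the 4 are among the strongest members. Capitals mark AAACGC, read on either strand. They also mark, on either strand of the same window, the word CAGTGNA, and wherever it occurs the palindromic word TTTAAA. Adjoining or overlapping matches run together.
rols, chr3L:12021966-12022165, plus strand: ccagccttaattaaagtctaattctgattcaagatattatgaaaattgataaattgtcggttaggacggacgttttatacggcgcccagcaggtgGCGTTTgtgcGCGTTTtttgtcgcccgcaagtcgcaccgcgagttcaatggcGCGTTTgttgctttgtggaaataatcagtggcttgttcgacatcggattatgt
Tsp, chr2L:6705115-6705314, plus strand: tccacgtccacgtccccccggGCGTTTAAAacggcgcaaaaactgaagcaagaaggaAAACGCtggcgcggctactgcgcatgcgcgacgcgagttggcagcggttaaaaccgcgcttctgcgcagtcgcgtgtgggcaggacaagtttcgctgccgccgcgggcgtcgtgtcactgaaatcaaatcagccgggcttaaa
Pvf3, chr2L:7140189-7140388, plus strand: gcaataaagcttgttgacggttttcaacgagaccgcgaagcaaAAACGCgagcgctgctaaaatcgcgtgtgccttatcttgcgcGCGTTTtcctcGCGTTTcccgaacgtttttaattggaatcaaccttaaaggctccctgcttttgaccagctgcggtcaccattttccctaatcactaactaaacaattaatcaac
CG4928, chrX:16932589-16932788, plus strand: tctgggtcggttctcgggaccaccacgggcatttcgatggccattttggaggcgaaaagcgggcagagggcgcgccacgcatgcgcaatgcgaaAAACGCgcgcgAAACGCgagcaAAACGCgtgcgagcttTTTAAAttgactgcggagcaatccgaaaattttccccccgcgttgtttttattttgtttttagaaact

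All 4 windows held AAACGC, with 2 copies at Tsp and 3 each at rols, Pvf3 and CG4928. None of these 4 windows held the word CAGTGNA. At Tsp and CG4928 the palindrome TTTAAA was also present. The windows ranged in GC content from 45.0% at rols to 60.5% at Tsp. Of the 20 strongest members found in both replicates, all 20 held AAACGC within 100 bp of the summit, against 15.7% of all 773 members and 9.90% of all 201900 windows of 200 bp in eligible bases. CAGTGNA was found in 1 of those 20 and in 23.9% of all members. These short words were chosen after the values were seen, so the counts are a description and carry no test.

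A second pair of windows shows the other word that recurs under deep intronic summits. They are strong members, found in both replicates, with at least 2 copies of CAGTGNA and no AAACGC, and capitals mark the same words. Both hosts encode ETS-domain factors downstream of receptor tyrosine kinases, the activator pnt and the repressor aop. The pair was picked after the values were seen, and a link between the word and the role of its hosts was not tested.
pnt, chr3R:23326398-23326597, plus strand: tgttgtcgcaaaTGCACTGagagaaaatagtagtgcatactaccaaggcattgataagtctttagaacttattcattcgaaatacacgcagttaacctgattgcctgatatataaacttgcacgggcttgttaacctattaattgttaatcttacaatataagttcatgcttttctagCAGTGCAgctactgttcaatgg
aop, chr2L:2163566-2163765, plus strand: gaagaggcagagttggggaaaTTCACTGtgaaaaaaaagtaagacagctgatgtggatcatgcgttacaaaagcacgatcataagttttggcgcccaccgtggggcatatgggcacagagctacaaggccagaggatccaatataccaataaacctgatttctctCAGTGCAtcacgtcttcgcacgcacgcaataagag

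Both windows held 2 copies of CAGTGNA and no TTTAAA. The pnt peak had a signal of 357 and ranked 712 in replicate 2 and 717 in replicate 3. The aop peak had a signal of 338, ranking 754 in replicate 2 and 1409 in replicate 3. In both windows the copies lay away from the summit, towards the edges of the 200 bp.

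Strong deep intronic peaks lay in genes of many kinds, among them muscle, extracellular matrix and growth factor signalling. A peak with a signal of 6431 lay 7333 bp from a TSS in the overlapping genes CG6191 and CG45088 and ranked 14 in both replicates. These genes share 5 members, which cannot be assigned to either of them. A peak in rols, which encodes an adaptor of myoblast fusion, had a signal of 4464 and ranks of 20 and 28. A peak in the first intron of Tsp, the fly thrombospondin gene, had a signal of 3956 and ranks of 26 and 29. The PDGF- and VEGF-like ligand genes Pvf3 and Pvf2 each held 1 of the 20, with signals of 2934 and 2442. The Pvf3 summit ranked 40 in both replicates, and the Pvf2 summit 45 and 63.

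Another 14 of the 20 strongest had signals between 2146 and 2872 and ranked from 32 to 72 in each replicate. They lay in tkv, the type I receptor of Dpp, with 2 peaks, in RhoGAP18B, in the fatty acid elongase gene Elovl7, in RapGAP1, and again in CG6191 and CG45088. Others were in tun, CG4928, CG6959, CG43759, the Hox gene Antp, the Dpp antagonist gene sog, the RhoGAP gene cv-c and bi, which encodes a T-box factor. The bi summit was the most remote of the 20, at 26003 bp from a TSS, followed by Antp at 15220 bp and CG43759 at 11821 bp. It lay in an overlapping non-coding RNA gene as well, and cannot be assigned to either of them. All 20 lay among the 72 strongest peaks of each replicate.

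Over all members the median signal was 207, with quartiles of 163 and 305. The median was 218 for the 904 intronic peaks within 2000 bp of a TSS, 197 for the 304 intergenic peaks beyond that distance and 213 for the whole list. Members made up 70 of the 317 strongest peaks of the list, or 22.1%. The deposited interval was exactly 400 bp wide for 85.5% of members and wider for 7.63%, against 5.05% of the whole list. No 2 optimal summits lay closer than 199 bp, and 60 members had another optimal summit within 210 bp, against 17 with the next summit from there to 500 bp. In 29 members that neighbour was the stronger one. Over the whole list 198 summits, 6.25%, had another within 210 bp, against 7.76% of members. Of the members, 25 shared a deposited interval with another member.

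Deep introns held fewer summits than their share of the genome. The bases that meet the rule make up 30.8% of the main chromosome arms, or 42.3 Mb, and held 24.4% of the summits (95% exact interval 22.9 to 25.9), which is 0.792 times the base share (2-sided exact binomial p = 1.72e-15). The share was 24.2% among the 3170 strongest peaks of replicate 2 and 22.5% among those of replicate 3, 23.3% ± 1.25 (SD, n = 2), so both replicates were below the base share. No member lay in an annotated transposable element, which allows a share of up to 0.388%, although such elements cover 8.19% of eligible bases (adjusted exact p = 1.82e-28). How reads were placed in repeats is not given in the sources used here, and its part in this was not tested. Without those bases the fold was 0.863 (exact binomial p = 9.84e-07). Peaks are not replicates, and intervals and p-values over peaks cover counting error only.

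Members were densest near the inner limit of the rule and thinned out with distance from a TSS. The distance to the nearest TSS ranged from 2009 to 42297 bp, with a median of 5054 bp. From 2000 to 5000 bp there were 377 members, 28.7 per Mb of eligible bases. From 5000 to 10000 bp there were 20.9 per Mb, and from 10000 to 20000 bp 15.1 per Mb. From 20000 to 50000 bp 33 members gave 6.33 per Mb, and the 4.18 Mb farther than 50000 bp held 0. The fall was seen in each replicate's own list, from 27.4 to 6.71 per Mb in replicate 2 and from 27.0 to 5.95 per Mb in replicate 3 over the same 4 ranges. The median signal did not follow the density, being 215 in the nearest range, 202 and 185 in the following ones and 214 in the range from 20000 to 50000 bp. At the limit itself, the nearest members lay in RhoU at 2009 bp, Pvf3 at 2015 bp and hiw at 2016 bp, with signals of 232, 2934 and 267. The nearest intronic summits on the other side lay in CG1677 and an overlapping non-coding RNA gene at 1991 bp, px at 1989 bp and rdgA at 1987 bp, with signals of 153, 187 and 149.

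First introns were the main location. Of the 773 members, 477 or 61.7% (95% exact interval 58.2 to 65.1) lay in the first intron of a transcript, against 37.2% of eligible bases, a 1.66-fold excess (exact binomial test, Benjamini-Hochberg adjusted p = 5.41e-42 over 8 features). The shares in the replicates' own lists were 59.5% and 61.8%, or 60.7% ± 1.62 (SD, n = 2). The excess held in every distance range that had members. First introns held 38.4 members per Mb against 18.4 in other introns from 2000 to 5000 bp, 28.7 against 15.1 in the next range, 23.3 against 11.2 in the third and 15.5 against 3.89 from 20000 to 50000 bp.

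**Figure D1:**
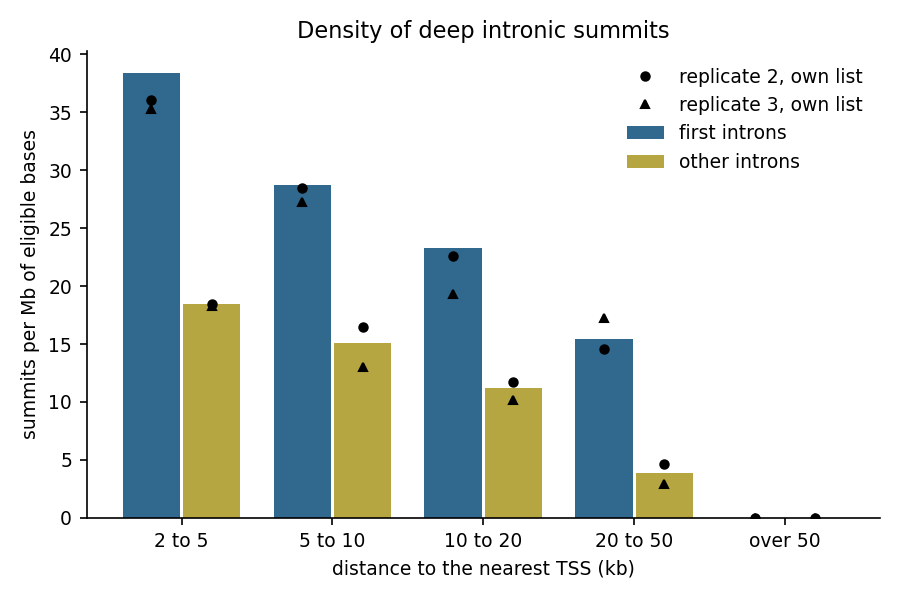
Deep intronic summits per Mb of eligible bases (y axis) by distance to the nearest TSS in kb (x axis), in first introns and in other introns. Bars are the optimal list, circles and triangles the 3170 strongest peaks of each replicate. First introns lie above other introns in every range that holds summits, and no summit lies beyond 50 kb.

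Very long introns were sparsely bound. Uninterrupted intronic stretches over 50 kb make up 12.8% of eligible bases and held 3.88% of members (adjusted exact p = 9.69e-17). Density also fell with distance from a TSS, and the length of the stretch was not tested apart from that distance. Stretches of 10 to 20 kb held 32.3% of members against 25.6% of bases (adjusted exact p = 4.99e-05). Shares in stretches under 10 kb (44.1% against 40.7%), in stretches of 20 to 50 kb (19.7% against 21.0%), in protein-coding hosts (98.4% against 97.7%) and in soft-masked sequence (21.3% against 24.5%) did not pass the threshold of 0.05, with adjusted exact p from 0.0648 to 0.401. In replicate 3's own list the first, the second and the last of these shares also passed, and the last did so in replicate 2's as well.

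By chromosome arm, 3 of 7 shares differed from the share of eligible bases past the threshold. Arm 2L held 18.5% of members against 15.4% of eligible bases (adjusted exact p = 0.0443), a call that was lost among the stronger 1585 peaks of the list, with 1 summit per cluster and in replicate 2's own list. Chromosome 4 held 0 members in 0.445 Mb (adjusted exact p = 0.00198) and Y held 0 in 0.937 Mb (adjusted exact p = 3.92e-07). All eligible bases of both entered the expectation. How reads were placed on them is not given in the sources used here, and its part was not tested. The embryos were of both sexes, and the copy number of Y was not taken into account. Among the stronger 1585 peaks, where 3.85 of 366 members would fall on chromosome 4 by its bases, its call was lost (adjusted exact p = 0.131) while that of Y was kept. X held 21.1% against 18.9% (adjusted exact p = 0.226), a share that passed in replicate 2's own list, whereas in replicate 3's it fell short of the bases. On 2R, 3L and 3R the share did not pass either.

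Deep intronic peaks were found in both replicates at a share near that of the whole list. A summit within 100 bp among the 3170 strongest peaks of each replicate was found for 397 members, 51.4% (95% exact interval 47.8 to 54.9), against 50.4% of the whole list as the background. It was 50.2% for intronic peaks near promoters (odds ratio 1.05, 95% interval 0.864 to 1.27) and 48.7% for distant intergenic peaks (odds ratio 1.11, 95% interval 0.853 to 1.45). None of 3 comparisons passed (Fisher's exact test, adjusted p = 0.659 each). Replicate 2 alone matched 263 members, replicate 3 alone 89 and neither of them 24. In the whole list of 3170 these numbers were 1079, 394 and 99. Counting all its matches, replicate 2 held 85.4% of members and 84.4% of the whole list. For replicate 3 these shares were 62.9% and 62.8%, so the imbalance between replicates was that of the whole list. In the full relaxed lists 711 members, 92.0%, were found in both, against 88.3% of all other optimal peaks (odds ratio 1.52, adjusted exact p = 0.0123). The comparisons with the 2 nearest classes did not pass there. The share was 89.5% for intronic peaks near promoters (odds ratio 1.35, adjusted exact p = 0.139). For distant intergenic peaks it was 91.8% (odds ratio 1.03, adjusted exact p = 0.902).

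The match depended on the signal. Of the 154 strongest members 96.8% were in both replicates, and over the next 4 groups of 154 or 155 the share was 81.3%, 52.6%, 23.2% and 3.23%. The optimal signal comes from both replicates pooled and is not independent of this match. Replicate 2 kept more of the weakest group than replicate 3, with 57.4% against 32.3%.

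**Figure D2:**
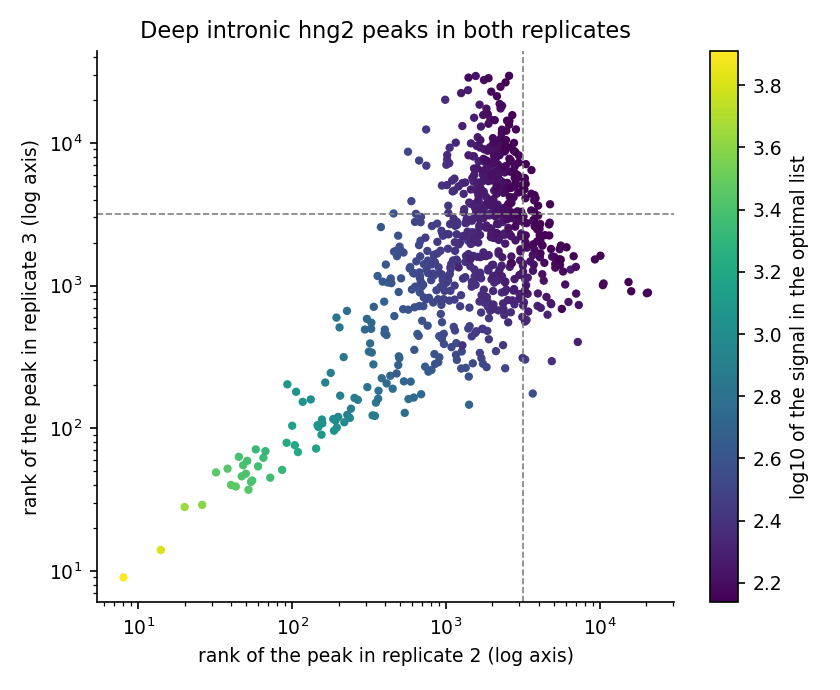
Rank of each deep intronic peak in replicate 3 (y axis, log) against its rank in replicate 2 (x axis, log) for the 711 members with a summit within 100 bp in both relaxed lists, coloured by log10 of the signal in the optimal list. Dashed lines mark rank 3170; the strongest members lie near the diagonal, and the weaker ones spread widely, more of them beyond the line of replicate 3.

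Of 28 known motifs searched on both strands, few differed between the summits and their own flanks. The flanks were 1458 windows of 200 bp centred 1000 bp away. The TATA box was found in 30.8% of summit windows and 22.4% of flanks (odds ratio 1.54, Fisher's exact test, adjusted p = 0.000590), and was the 1 motif higher, or 3.57% of those tested. Its share was 32.7% in the whole list, 35.3% in intronic peaks near promoters and 31.6% in distant intergenic peaks. The Su(H) site TGGGAA, bound by the DNA-binding partner of Notch, was found in 9.70% against 14.95% (odds ratio 0.611, adjusted exact p = 0.00651) and was the 1 motif lower, again 3.57%. Summit windows had a median GC content of 36.5% and flanks 40.5%. Neither motif passed when flanks were limited to those within 5 percentage points of GC of their summit, or in replicate 3's own list. In that list the TATA box stood at 23.0% against 22.1% of flanks, and Su(H) at 10.4% against 11.7%. In replicate 2's own list the shares were 33.2% against 22.7% and 10.9% against 14.9%. Over 5 groups by signal, median GC content at the summits ran from 34.5% to 37.5% in replicate 2's list, with flanks from 39% to 41%. In replicate 3's list it ran from 38.5% to 43.75%, with flanks from 40.25% to 41.5%. Su(H) was also lost in replicate 2's list, in windows of 100 bp and among the stronger 1585 peaks, and the TATA box in windows of 400 bp. In windows of 100 bp the log2 odds ratio of Su(H) was the same as in those of 200 bp, -0.71, with 35 summit windows that held it in place of 75.

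Against other peak classes only the Sox site ACAATGG passed, 3.57% of the motifs in each comparison. It was found in 3.62% of members, 0.885% of intronic peaks near promoters (odds ratio 4.21, adjusted exact p = 0.00364) and 0.329% of distant intergenic peaks (odds ratio 11.4, adjusted exact p = 0.0345). The members' own flanks held it at 3.70% and all eligible windows at 3.20%, so its share at deep intronic summits was near that of introns in general. The difference no longer passed in windows of 100 or 400 bp or among the stronger 1585 peaks, nor in replicate 3's own list, and against intergenic peaks it was lost in replicate 2's list too.

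Over all 8192 merged 7-mers, 94 (1.15%) were higher and 13 (0.159%) lower at the summits than in the flanks after Benjamini-Hochberg adjustment. Neighbouring 7-mers overlap and are not independent. The 7-mer with the smallest p was CAGTGCA, in 10.3% of summit windows and 3.16% of flanks (odds ratio 3.54, Fisher's exact test, adjusted p = 1.16e-07). It was found in 8.52% of all optimal windows, 7.74% of intronic peaks near promoters and 15.1% of distant intergenic peaks, differences between classes that were not tested. Words that overlap it on one strand or the other were higher as well. CAGTGTA was found in 7.76% of summit windows against 1.92% of flanks. For CACTGAG the shares were 7.63% in summit windows and 1.99% in flanks. For AGTGCAC they were 6.73% in summit windows and 1.78% in flanks. A second family was led by AAACGCG, found in 6.21% of summit windows against 1.51% of flanks (odds ratio 4.32, adjusted exact p = 6.89e-06). Its share was 5.68% in the whole list and 3.62% in distant intergenic peaks. The related word AAAACGC was found in 9.70% of summit windows against 3.50% of flanks.

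The other 4 of the 10 7-mers with the smallest p were made of A and T or nearly so. AAATATT was found in 25.1% of summit windows against 14.1% of flanks. For ATATTTA the shares were 20.7% in summit windows and 11.4% in flanks. TTTAAAA stood at 19.5% in summit windows against 10.1% in flanks. GTAAATA was found in 12.8% of summit windows and in 5.83% of flanks. None of these 4 passed with flanks of similar GC, where 436 summit windows were left. There 4 7-mers passed in all, among them the 2 of the second family and the 7-mer with the smallest p, while the other 3 related to it did not pass with these fewer windows. Their log2 odds ratios there were 1.78 for CAGTGTA, 1.53 for CACTGAG and 1.98 for AGTGCAC, against 2.10, 2.03 and 1.99 with all flanks. Replicate 3's own list gave 44 7-mers past the threshold and replicate 2's 147, and of the 10 named here TTTAAAA was lost in replicate 3's and in windows of 400 bp, and GTAAATA among the stronger 1585 peaks.

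The words AAACGC and CAGTGNA were distributed differently over the members. AAACGC was found in 41.6% of the 154 strongest members, where the flanks held 7.09%. In the 4 weaker groups its share was 5.81%, 14.3%, 9.68% and 7.10%, where the flanks held from 10.7% to 13.2%. CAGTGNA was found in 19.5% of the strongest group and in 25.8%, 27.3%, 23.9% and 23.2% of the others, with flanks from 7.77% to 12.1%. The median GC content of the strongest group was 40% against 40.5% in its flanks. In the replicates' own lists AAACGC was found in 35.3% of the strongest 153 deep intronic peaks of replicate 2 and in 47.9% of the strongest 142 of replicate 3. For CAGTGNA these shares were 20.3% against 9.19% of flanks in replicate 2 and 14.1% against 11.4% in replicate 3. In the weaker groups CAGTGNA stood at 23.4% to 29.9% in replicate 2, with flanks from 8.97% to 12.2%. In replicate 3 it stood there at 16.2% to 23.1%, with flanks from 9.02% to 13.1%. With members beside a stronger summit left out, the strongest group held AAACGC in 41.9%.

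Over all strengths AAACGC was found in 15.7% of members and 14.2% of the whole list, and CAGTGNA in 23.9% of members and 20.9% of the whole list. AAACGC was found in 37 of the strongest 180 intronic peaks near promoters, 20.6%, and 12 of the strongest 60 distant intergenic peaks, against 41.6% of the strongest members. CAGTGNA stood at 26.2% to 34.4% in the 5 groups of distant intergenic peaks, against 19.5% to 27.3% in those of members. These differences between classes were not tested. Members with AAACGC alone numbered 99 and had a median signal of 397. The 163 with CAGTGNA alone had a median of 202, the 22 with both 230 and the 489 with neither 197.

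The positions of the words differed too. Over all members, AAACGC occurred 1.64 times per kb within 50 bp of the summit and 0.737 times per kb from 50 to 100 bp. The latter was close to the 0.793 found from 200 to 500 bp. Within 50 bp the rate ran by position from 2.34 to 9.35 per kb in the 154 strongest members. In the 619 others it ran from 0.258 to 0.775 per kb, so the excess at the summit was that of the strongest members. CAGTGNA was most frequent beside the summit, with 0.815 per kb within 50 bp, 2.10 from 50 to 100 bp, 1.27 from 100 to 150 bp and 0.569 from 200 to 500 bp. In windows of 100 bp, which end 50 bp from the summit, the 4 named 7-mers of the CAGTG type no longer passed. Fewer summit windows held them there, 24 in place of 80 for CAGTGCA. Their log2 odds ratios stayed above 0, at 1.28 for CAGTGCA, 1.15 for CAGTGTA, 0.76 for CACTGAG and 1.38 for AGTGCAC. In windows of 200 bp they were 1.83, 2.10, 2.03 and 1.99.

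**Figure D3:**
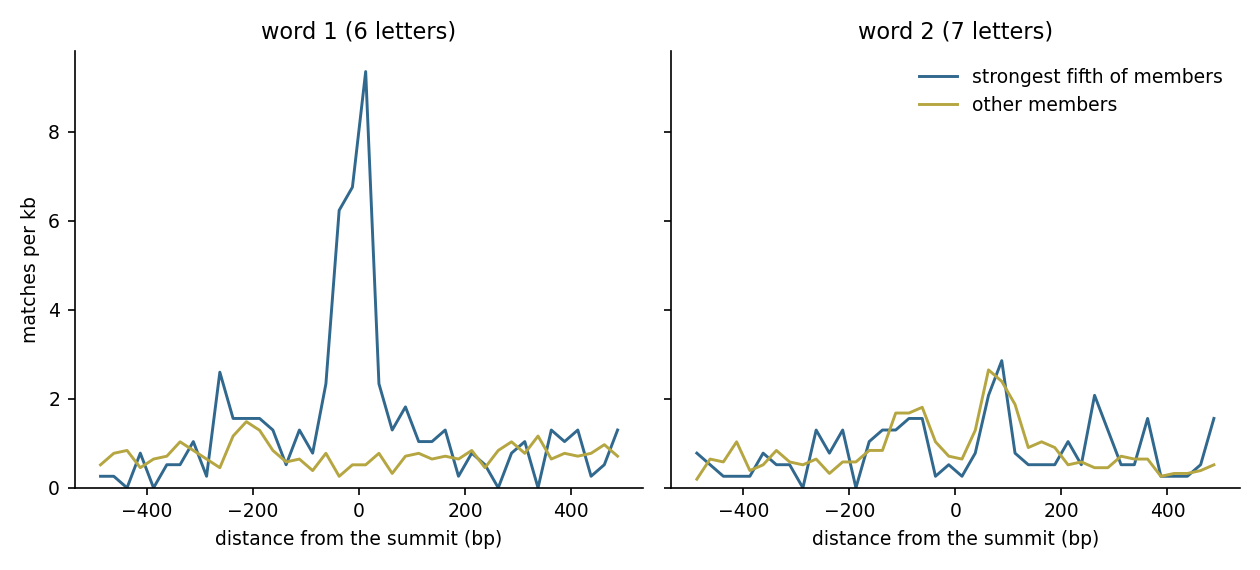
Matches per kb (y axis) of AAACGC (word 1, left) and CAGTGNA (word 2, right) by distance from the summit in bp on the plus strand (x axis), for the 154 strongest members and for all others. Word 1 peaks at the summit of the strongest members alone, while word 2 is more frequent on either side of the summit than at it in both groups.

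A minority of the genes with eligible bases held deep intronic peaks. Of 4224 protein-coding genes with eligible bases, 431 (10.2%) held at least 1 member, and 761 members had such a host. Up to 5 kb of eligible bases was all that 2806 of these genes had. The number of hosts under even placement was not computed. Most hosts, 262, held 1 member, 88 held 2, 53 held 3 or 4, and 28 held 5 or more, with 170 members or 22.0% of all. A promoter summit within 500 bp of a TSS was found for 34.6% of hosts and 14.0% of the other 3793 genes. Hosts have more room, with a median of 18.7 kb of eligible bases against 1.12 kb, but the order was the same within each range of size. With over 50 kb of eligible bases, 35.7% of 70 hosts and 10.3% of 97 other genes had a promoter summit. With up to 5 kb the shares were 30.2% of 63 and 13.5% of 2743.

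After tkv, the gene with most members was Drak, which encodes a kinase related to death-associated protein kinases, with 11 members, 8 of them in both replicates and all in first introns. kirre, the gene of a myoblast adhesion receptor, held 8, of which 2 were in both replicates, spread over 288 kb of eligible bases. Hosts with 7 members were sog, the transcriptional cofactor gene sbb, the kinase gene Raf, tara, the Notch coactivator gene mam and the zinc finger gene jing, and RapGAP1 held 6. In sog and Raf 4 members each were in both replicates, in tara 3, in mam 5, and in sbb and jing 6 each. The densities were 36.0 members per 100 kb in sog, 28.6 in Raf and 27.9 in tara, against 2.78 in kirre. Of the sog members, 4 remained when those beside a stronger summit were left out. hng1, hng2 and hng3 held no member.

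tkv, at bases 5219000 to 5271384 of 2L on the minus strand, held 14 members, 8 of them in both replicates, and all lay in first introns of its transcripts. That is 54.6 members per 100 kb of its 25.6 kb of eligible bases. The strongest had a signal of 2862 and ranks of 32 in replicate 2 and 49 in replicate 3, the next 2561 with ranks of 50 and 48, and the following one 2046 with ranks of 86 and 51. The next one had 800 with ranks of 205 and 169, and the other 10 had signals between 138 and 352. Of the 6 not in both replicates, the one with a signal of 352 ranked 3659 in replicate 2 and 175 in replicate 3 and lay beside the summit of 2046. With members beside a stronger summit left out, 12 were left. The strong members lay downstream of the internal TSS beside which the top peak of the whole list, with a signal of 22810, was placed.

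**Figure D4:**
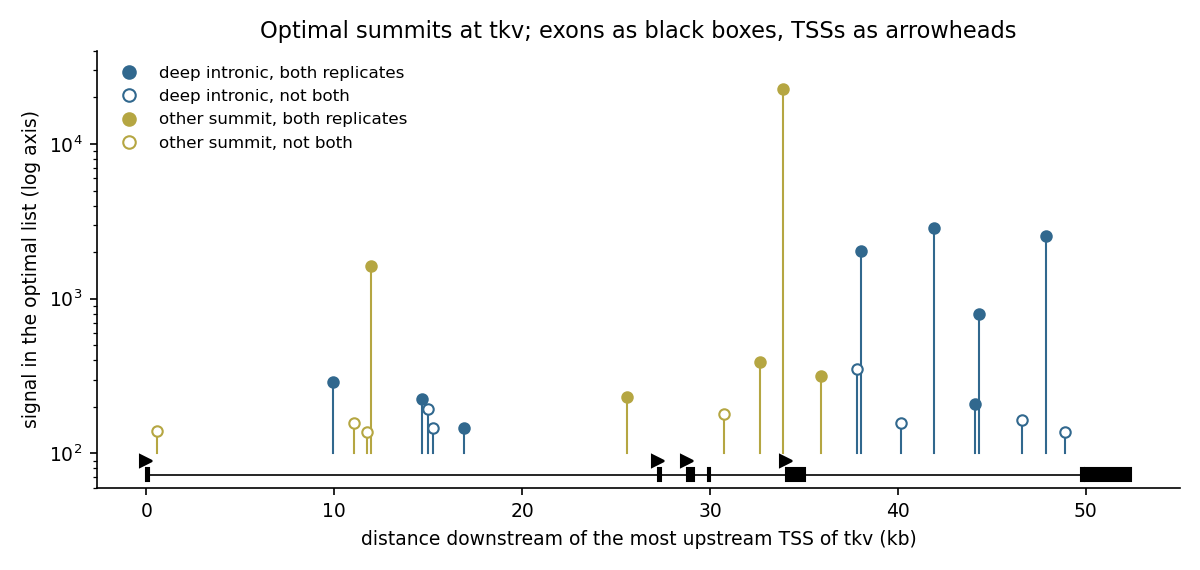
Signal in the optimal list (y axis, log) of each summit at tkv by distance downstream of its most upstream TSS in kb (x axis), with deep intronic members and other summits in separate colours, filled where found in both replicates. The members form a group between the first 2 promoter regions and a stronger group between the last internal TSS and the 3' exons, with the top peak of 22810 beside that TSS.

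The 16 gene lists differed widely in how densely their deep introns were bound. All protein-coding genes together held 18.4 members per Mb of eligible bases, and 10.2% of those with such bases were hosts. The share of hosts rose with a gene's eligible bases, from 2.25% with up to 5 kb to 41.9% with over 50 kb. Host counts of the lists were not adjusted for gene size, nor their densities for distance from a TSS. The Dpp and BMP pathway stood highest, with 10 of 16 genes as hosts and 36 members, 18 of them in both replicates, or 156 per Mb. Without tkv its 22 members gave 107 per Mb. Ligand, receptor and extracellular regulator genes were among the hosts, namely dpp with 1 member, tkv, sog with 7 and cv-2, which binds BMP ligands, with 2. Genes that act inside the cell included Mad, the transducer, shn, its cofactor, and Dad, the inhibitory Smad, with a signal of 364. The dpp member was weak, with a signal of 178, and was not found in both replicates.

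Receptor tyrosine kinase pathways had 12 of 25 genes as hosts and 62.8 members per Mb. Their strongest members were in the ligand genes Pvf3, Pvf2 and bnl, an FGF, with top signals of 2934, 2442 and 1128. Trachea and branching regulators, second by density, had 6 of 13 hosts and 71.0 per Mb, of which bnl alone gave 5 of 13 members, and 53.2 per Mb without it. Muscle and myoblast fusion genes had 9 of 23 hosts and 48.7 per Mb, with rols, Tsp and the integrin gene mew in front, and 16 of their 20 members were in both replicates.

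The Notch pathway had 5 of 13 hosts and 51.2 per Mb, but 26.5 without mam. Its strongest members were in kuz, the gene of a Notch-cleaving protease, with a top signal of 974, and in N itself with 487. Polycomb and Trithorax genes had 4 of 23 hosts and 57.5 per Mb, led by trx and Psc and with 7 of 11 members in jing. GATA factors and blood cell regulators had 4 of 16 hosts and 48.0 per Mb, with 5 of 8 members in ush, a GATA cofactor gene, and 23.9 per Mb without it. Nuclear receptors and ecdysone response genes had 8 of 19 hosts and 39.3 per Mb, with Hr3, Hr4 and Eip75B among them.

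Segmentation genes at 40.8 per Mb with 3 members, Wingless and Hedgehog pathway genes at 37.7, wing hinge and appendage regulators at 34.7 and homeobox regulators at 34.0 were also above the figure for all genes. The strongest member of the wing hinge and appendage list was in Dll, with a signal of 2052, and that of the Wingless and Hedgehog list in the receptor gene fz, with 581. Planar polarity and cytoskeleton genes, at 21.1 per Mb, were near that figure and at 11.1 without cv-c below it. Axon guidance and cell adhesion genes had 11 of 49 hosts but 11.6 per Mb over 2.33 Mb of eligible bases. RNA-binding regulators had 8 of 21 hosts and 6.44 per Mb, led by Rbfox1 and shep. Ion channels and receptors of excitable cells stood lowest, with 1 host of 34 and 1.00 per Mb. That 1 member was in Shal, a potassium channel gene, with a signal of 172 and ranks of 2586 and 2303. The lists were chosen with earlier results of these data known and were not tested.

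**Figure D5:**
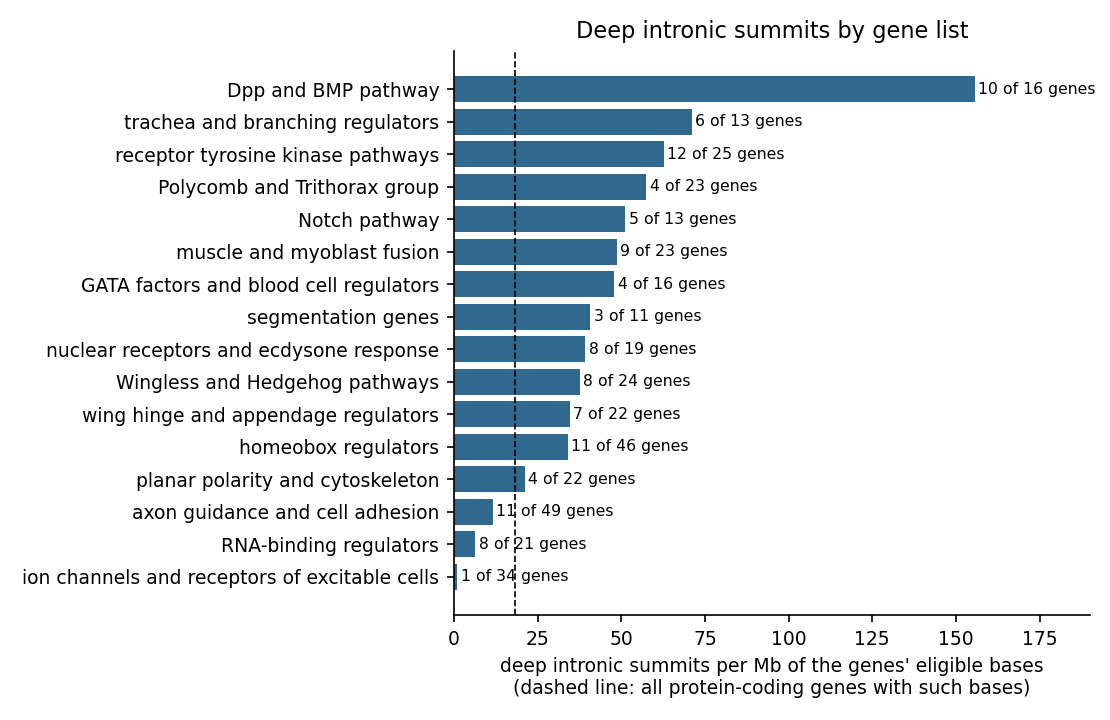
Deep intronic summits per Mb of eligible bases (x axis) for 16 gene lists, with the number of host genes out of genes with eligible bases beside each bar. The dashed line is all protein-coding genes at 18.4 per Mb; the Dpp and BMP pathway lies highest at 156 and ion channels lowest at 1.00.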

How the data were processed

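ChIP-seq peak lists of 2 replicates were used. The signal of each peak is the authors' enrichment value against a control, as deposited, and was compared only within a list. The -log10 q-value per peak is as the authors deposited it. The summit offset, deposited by the authors in bp from the peak start, gave each summit. The sources used here do not give the peak caller, the aligner, any version or the IDR threshold. The lists hold no read counts, so depth is unknown. Summits on dm6 were joined to the Release 6 sequence and its Ensembl annotation (release 115, FlyBase release 6.54), with Python 3.11.15, numpy 2.4.6, scipy 1.17.1 and matplotlib 3.10.9. Coordinates are 1-based. Shares of summits were set against shares of eligible bases by exact binomial tests, and windows of 200 bp against flanks 1000 bp away by Fisher's exact test, each family with Benjamini-Hochberg adjustment at a threshold of 0.05. Flanks within 300 bp of another optimal summit were left out. Each replicate's own list is its 3170 strongest peaks. The 7-mer test and the exact binomial test of location were checked on simulated data, the other tests were not. Simulated summit and flank windows were drawn with the same base composition, unlike the real ones. Named genes are hosts of the 20 strongest members in both replicates, the 10 genes with most members, up to 3 hosts per list with the strongest members, and those at the distance limit; pnt, aop, Mad, shn, dpp and Dad fall outside the rule and were named after their values were seen. The members and lists were chosen with earlier results of these data known. Of 463 listed entries 459 were found. Lists on dm3 were not used here. Some items among the strongest members are not reported here.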

Additional observations from a re-analysis of the deposited data

How the results depend on the processing

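The deep intronic share stayed below the base share, past the threshold, in every alternative run, from 0.589-fold with a TSS distance of 5000 bp to 0.930-fold with 1000 bp; transposable element bases and summits beside a stronger summit were left out in alternatives chosen after seeing the data, as were flanks limited in GC. The first-intron excess passed in every alternative run. The cause of the changes below was not tested. Among the stronger 1585 peaks 1 arm passed instead of 3, and the log2 ratio of 2R turned to 0.0078. Leaving out a replicate, log2 ratios ran from -0.097 to 0.00044 on 2R, from -0.077 to 0.098 on 3R, from -0.18 to 0.24 on X and from -0.098 to 0.0034 on 3L, and intron features past the threshold from 5 to 7, against 4. The log2 odds ratio of the replicate match was -0.032 against intronic peaks near promoters at 200 bp, from -0.22 to 0.24 against intergenic peaks with 1 replicate, and 0.60 against all other peaks in the full relaxed lists, where it passed. Motifs past the threshold against flanks numbered 2, and 1 in windows of 100 bp, 4 in windows of 400 bp, 4 with flanks at 500 bp, 1 among the stronger 1585 peaks, 0 with flanks of similar GC and from 0 to 2 with 1 replicate. Against intronic peaks near promoters the number was 1, and 0, 2 and 0 in windows of 100 bp, of 400 bp and among the stronger 1585 peaks, and from 1 to 3 with 1 replicate. Against intergenic peaks it was 1, and 0 in windows of 100 bp, 0 among the stronger 1585 peaks and from 0 to 0 with 1 replicate. 7-mers past the threshold numbered 107, and 47 in windows of 100 bp (35 of them among the 107), 22 among the stronger 1585 peaks (21 shared), 4 with flanks of similar GC (all 4 shared) and from 44 to 147 with 1 replicate (24 and 77 shared). No paired analysis was possible because the samples form 1 group. The lists give no counts, so depth limits cannot be set.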
